A study of Mus musculus with 27 samples.

Results

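Endothelial cells and pericytes are represented here by 10 genes, Cldn5, Flt1, Kdr, Pecam1, Cdh5, Esam, Tek, Igfbp7, Pdgfrb and Rgs5, out of 19057 genes with a probe on the array. Every probe annotated to one of these symbols was taken from the deposited tables of non-normalised signals, with no filter on detection, which gave 19 probes of 45281. Probe annotation came from the platform table, and all 10 symbols were the current ones. Where a gene had several probes, the one with the highest mean over all arrays was used and the others are given separately.

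The series profiled gene expression in mouse cortex around the Tbr2 lineage. Tbr2 is the transcription factor encoded by Eomes, made by the intermediate progenitors of excitatory cortical neurons. The 27 Illumina bead arrays fall into 5 groups. There were 5 arrays labelled Tbr2 conditional knockout (cKO), embryonic cortex at embryonic day 13 (E13 cKO), and 6 arrays labelled E13 embryo. There were 6 arrays labelled Tbr2 conditional knockout, embryonic cortex at embryonic day 16 (E16 cKO), and 5 labelled E16 embryo. The last 5 arrays were from GFP-positive neurons of brain cortex at postnatal day 2 (P2 neurons), sorted by flow cytometry as cells of the Tbr2 lineage. The embryo labels name no tissue, genotype or sort, and their columns carry the letters WT. The labels name neither the Cre driver, nor the deleted part of Eomes, nor whether animals were pooled. The extraction text on every sample speaks of sorted GFP-positive neurons, whereas the titles name a sort for the P2 samples only. All 22 embryonic titles are marked as a re-analysis, and no P2 title is. The E16 embryo age label repeats E13, and the E13 cKO descriptions repeat those of the P2 samples. Nothing states that replicates came from separate animals, so p-values measure the spread between these samples, which may be technical.

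Brain vessels are tubes of endothelial cells wrapped by pericytes and, on larger vessels, smooth muscle. Endothelial cells respond to vascular endothelial growth factors through the receptors Flt1 and Kdr and to angiopoietins through Tek, and they hold together through Cdh5, Pecam1, Esam and, at the tight junctions of the blood-brain barrier, Cldn5. They recruit pericytes by secreting Pdgfb, whose receptor on the pericyte is Pdgfrb. Vessels grow into the cortex during the embryonic days sampled here, and the network expands after birth.

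RefSeq promoter windows of 300 bases, 250 before and 50 after the transcription start, were at hand for 6 of the 10 genes. The 6 windows taken are all shown: 5 of these genes were higher in P2 neurons than in the embryo groups, while Kdr gave no signal above background anywhere. All are read 5′ to 3′ on the gene's strand in build GRCm38.p6. Capitals mark the core motifs searched on both strands, which were AGGAAG for the ETS factors, CCGGAA also for the ETS factors, and AGATAA for the GATA factors, both families being known regulators of endothelial genes. No motif overlaps another in these windows. The windows are chr16:18776597-18776896 (plus strand) for Cldn5, chr5:147725962-147726261 (minus strand) for Flt1, chr5:75978406-75978705 (minus strand) for Kdr, chr4:94739039-94739338 (plus strand) for Tek, chr5:77407996-77408295 (minus strand) for Igfbp7 and chr1:169655251-169655550 (plus strand) for Rgs5.
Cldn5: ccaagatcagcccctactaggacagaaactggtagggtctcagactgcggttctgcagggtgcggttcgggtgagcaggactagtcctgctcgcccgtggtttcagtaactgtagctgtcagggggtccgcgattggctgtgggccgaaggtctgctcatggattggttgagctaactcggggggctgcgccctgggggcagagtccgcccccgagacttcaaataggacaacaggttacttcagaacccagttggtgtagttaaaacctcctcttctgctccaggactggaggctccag
Flt1: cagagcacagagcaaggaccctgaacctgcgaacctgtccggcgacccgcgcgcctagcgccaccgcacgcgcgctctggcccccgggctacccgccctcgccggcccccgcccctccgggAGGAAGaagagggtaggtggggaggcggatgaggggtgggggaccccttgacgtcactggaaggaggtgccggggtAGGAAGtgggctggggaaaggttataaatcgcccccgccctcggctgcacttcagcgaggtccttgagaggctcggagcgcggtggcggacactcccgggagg
Kdr: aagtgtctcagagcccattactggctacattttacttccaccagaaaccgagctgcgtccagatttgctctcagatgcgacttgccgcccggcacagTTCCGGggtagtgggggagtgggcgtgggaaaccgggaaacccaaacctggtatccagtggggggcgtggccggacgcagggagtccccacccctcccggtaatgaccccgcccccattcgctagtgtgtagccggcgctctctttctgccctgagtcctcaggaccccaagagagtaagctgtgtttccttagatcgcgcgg
Tek: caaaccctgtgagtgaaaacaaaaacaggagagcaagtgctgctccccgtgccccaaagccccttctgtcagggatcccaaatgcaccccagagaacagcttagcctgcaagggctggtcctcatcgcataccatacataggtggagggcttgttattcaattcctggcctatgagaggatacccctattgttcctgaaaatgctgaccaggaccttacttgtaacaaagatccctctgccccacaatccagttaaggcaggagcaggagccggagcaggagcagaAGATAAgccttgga
Igfbp7: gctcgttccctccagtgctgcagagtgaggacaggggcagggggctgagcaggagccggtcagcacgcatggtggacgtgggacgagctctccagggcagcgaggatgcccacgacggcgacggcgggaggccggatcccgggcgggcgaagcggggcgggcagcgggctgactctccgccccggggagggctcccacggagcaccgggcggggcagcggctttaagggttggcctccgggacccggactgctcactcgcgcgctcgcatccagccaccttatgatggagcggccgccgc
Rgs5: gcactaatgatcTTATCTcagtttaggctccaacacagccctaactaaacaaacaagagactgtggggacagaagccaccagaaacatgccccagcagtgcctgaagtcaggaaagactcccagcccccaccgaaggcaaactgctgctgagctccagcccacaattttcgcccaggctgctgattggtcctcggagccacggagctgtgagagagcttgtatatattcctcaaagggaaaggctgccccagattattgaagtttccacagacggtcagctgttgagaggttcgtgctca

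AGGAAG was present in 2 copies in the Flt1 window. The Kdr window held 1 CCGGAA, read on the other strand as TTCCGG. The Tek window held 1 AGATAA just after the start, and the Rgs5 window 1 AGATAA, read on the other strand as TTATCT. The windows of Cldn5 and Igfbp7 held none of the 3 motifs. On either strand, AGGAAG occurs in 35.4% of the 32851 promoter windows of the same length, CCGGAA in 14.9% and AGATAA in 11.2%, so single matches are common. These are matches of letters and say nothing about binding.

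The arrays had median raw signals of 8.51 to 42.3 and 36.9% to 42.9% of probes above background, which means a deposited detection p under 0.01. Values below are log2 signals after background correction and quantile normalisation. On this scale the dimmest probe above background lay between 5.43 and 5.74 on the P2 arrays and between 5.64 and 5.93 on the embryonic arrays. Array numbers follow the columns of the deposited tables and carry no order. The number of arrays limits the precision. The P2, cKO and embryo arrays were deposited in 3 separate tables, so that table, genotype, stage and sort cannot be told apart where a comparison crosses tables. No pair of arrays within a group was identical, and arrays of 1 group correlated at 0.978 to 0.994. Pairs across groups were not checked for identity. Eomes, the gene named by the knockout, was not lower in the arrays labelled cKO: it averaged 11.52 ± 0.10 in E13 cKO and 11.25 ± 0.27 in E13 embryo (SD, n = 5 and 6), and 11.09 ± 0.46 in E16 cKO and 10.51 ± 0.32 in E16 embryo (n = 6 and 5). Where its probe lies relative to the deleted part is not known here, so the level does not check the label. P2 neurons had Eomes at 5.81 ± 0.41 (n = 5). Of 11 measured neuron markers, 10 were above background on all 5 P2 arrays, and 8 or 9 were so on every array of each embryonic group.

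Some arrays stood apart and are named before the results. Array 4 of E13 cKO had 5 of the 10 vascular genes above background, while the other 21 embryonic arrays had 0 to 2. Array 3 of the P2 neurons had the highest Rgs5 of its group, the only Pdgfrb above background, and the lowest values of 6 other vascular genes above background. Kdr, above background on no array, was lowest there too. Array 2 of E13 cKO and array 3 of E16 cKO resembled the embryo arrays in Cxcl12, a secreted chemokine whose cell source was not tested here. They had 9.07 and 9.17, against 5.71 to 7.74 on the other 9 cKO arrays and 8.29 to 9.03 on the 11 embryo arrays. Results that rest on array 4 of E13 cKO or array 3 of P2 neurons are given with and without it.

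In P2 neurons 8 of the 10 vascular genes were above background on all 5 arrays, whereas on the 22 embryonic arrays only Esam was regularly above it, on 21 of them. The summed linear signal of the 10 genes was 6243 to 7959 in P2 neurons, against 312 to 356 in E16 embryo and 282 to 331 in E13 embryo. In each embryo group 9 of the 10 genes were above background on no array. The embryo sums therefore hold signals that are only bounds, and no fold is given. The same limit holds for sums of other lists below where genes were not above background. Limma, with Benjamini-Hochberg adjustment over all probes and a threshold of 0.05, called 9 of the 10 genes higher in P2 neurons than in E16 embryo, where 21.2% of all 19057 genes were called higher and 48.9% in either direction. Against E13 embryo it called 8 of the 10 higher, against 22.4% of all genes called higher and 50.2% in either direction, and none of the 10 was called lower in either comparison. The median log2 change of the 10 genes was 3.27 against E16 embryo, beside −0.03 over all genes, and 3.35 against E13 embryo, beside −0.03 over all genes. Every P2 array lay above every E16 embryo array for 8 of the 10 genes, as did 16.2% of all genes, and the same held against E13 embryo for 8 of the 10, as for 16.7% of all genes. Both comparisons share the P2 arrays. In bulk samples fewer cells of a type and less RNA per cell cannot be told apart.

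**Figure D1:**
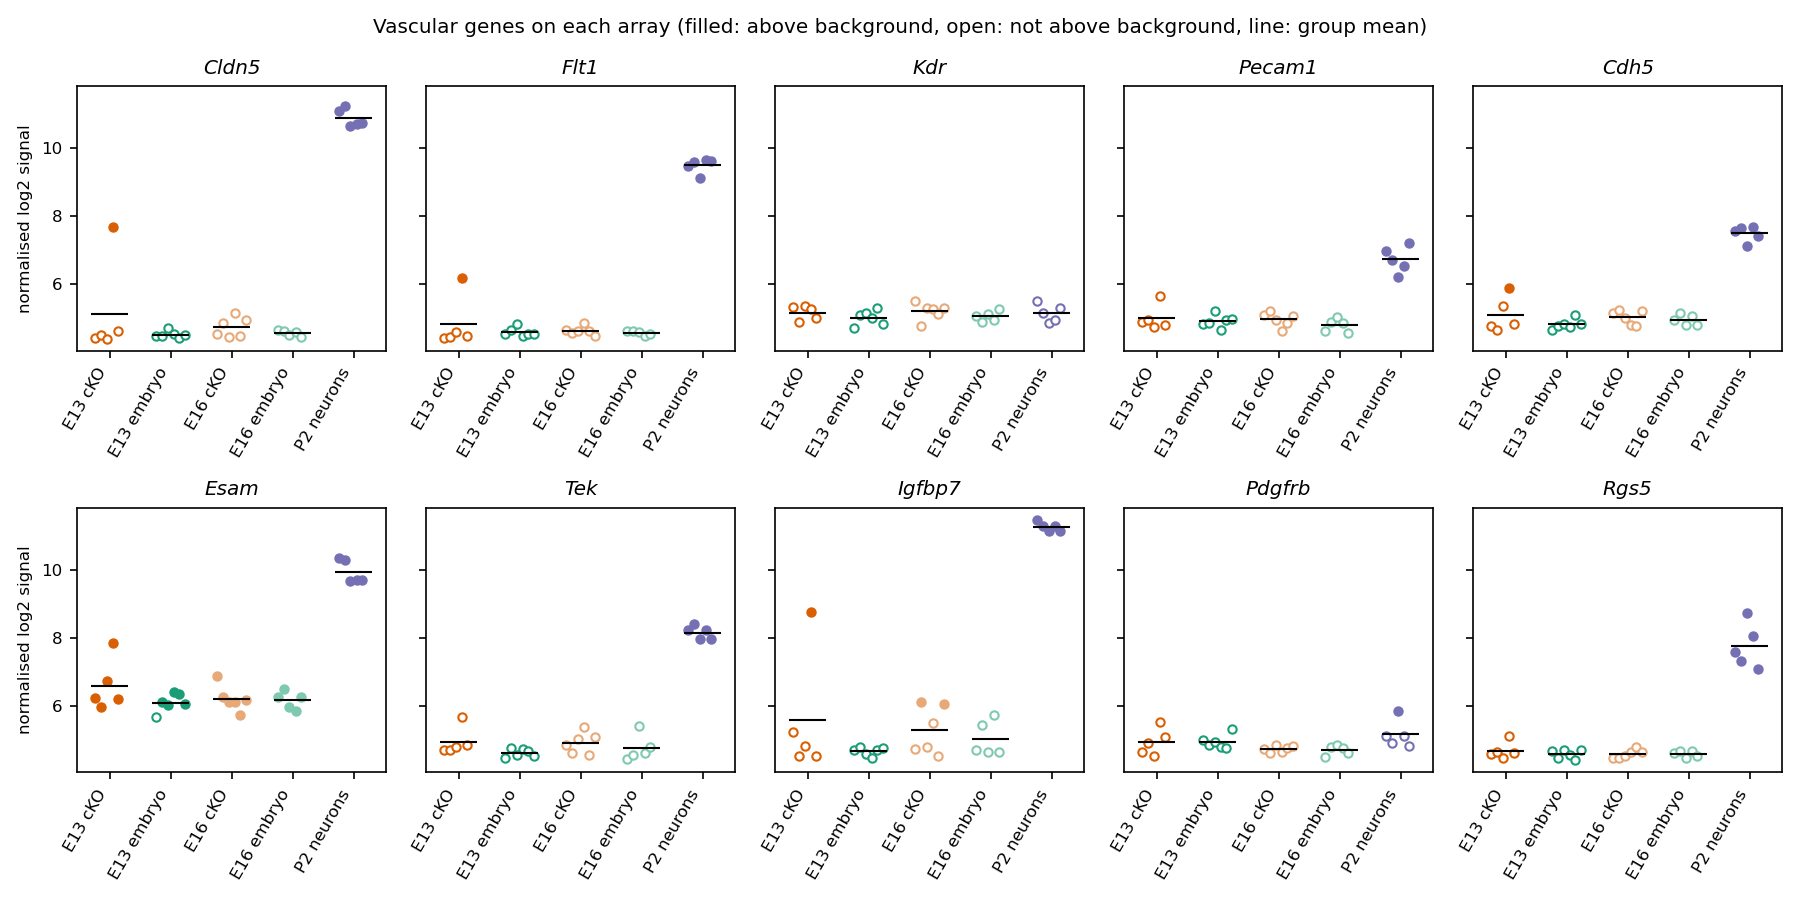
Normalised log2 signal of each vascular gene (y axis) on every array of the 5 groups (x axis), 1 point per array, filled where the array's detection p is under 0.01 and open otherwise, with the group mean as a line. The P2 neurons lie above every other array for Cldn5, Flt1, Pecam1, Cdh5, Esam, Tek, Igfbp7 and Rgs5, Kdr overlaps in all groups, and 1 E13 cKO array (array 4, Cldn5 at 7.67) stands above the rest of its group.

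Cldn5, the main claudin of brain endothelial tight junctions, had log2 signals of 11.10, 11.25, 10.66, 10.70 and 10.76 on the 5 P2 arrays, against 4.65, 4.63, 4.50, 4.60 and 4.47 on the 5 E16 embryo arrays. The groups were far apart, and no E16 embryo array had Cldn5 above background. The log2 change was 6.33 ± 0.38 (SE; limma adjusted p = 6.11e-13). Because the E16 signals are only a bound, the fold is given against the dimmest detectable signal of each array: Cldn5 was at least 35.1-fold higher in P2 neurons. Other bounds below were made in the same way. In E13 embryo Cldn5 lay between 4.43 and 4.71 with a median of 4.50, again with no array above background, and P2 neurons were at least 36.2-fold higher (log2 change 6.37 ± 0.37, limma adjusted p = 1.7e-13).

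Esam, an immunoglobulin-type adhesion molecule of endothelial junctions, was the 1 member measured on both sides. It had 10.35, 10.28, 9.67, 9.71 and 9.70 on the P2 arrays, against 6.27, 6.51, 5.98, 5.85 and 6.27 on the E16 embryo arrays. All 10 of these values were above background and the groups did not overlap. Esam was 13.6-fold higher in P2 neurons than in E16 embryo (log2 change 3.77 ± 0.26, limma adjusted p = 7.55e-12) and 14.4-fold higher than in E13 embryo (3.85 ± 0.25, limma adjusted p = 1.62e-12). In E13 embryo Esam lay between 5.66 and 6.39 and was above background on 5 of 6 arrays. The dimmest signal above background averaged 5.71 there, so the fold against E13 embryo rests on values near that limit.

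Cdh5, the VE-cadherin of endothelial adherens junctions, had 7.57, 7.66, 7.12, 7.70 and 7.44 on the P2 arrays and 4.94, 5.15, 4.80, 5.06 and 4.81 on the E16 embryo arrays. It was at least 3.34-fold higher in P2 neurons (log2 change 2.55 ± 0.17, limma adjusted p = 4.21e-12), and at least 3.44-fold higher than in E13 embryo. The second Cdh5 probe changed by 0.51 on the log2 scale (limma adjusted p = 0.000361) without being above background on any array, so it gives a direction and no fold. Pecam1, the CD31 adhesion molecule, had 6.99, 6.71, 6.21, 6.55 and 7.21 on the P2 arrays and 4.64, 4.89, 5.05, 4.87 and 4.59 on the E16 embryo arrays. Here too every P2 array lay above every E16 array, with a bound of at least 1.96-fold (log2 change 1.93 ± 0.17, limma adjusted p = 6.49e-10). Of the other 2 Pecam1 probes, ILMN_3147074 was higher in P2 neurons by 0.76 ± 0.16 (limma adjusted p = 0.000438) and above background on 4 of 5 P2 arrays. The third Pecam1 probe, ILMN_1226690, changed by 0.13 and did not pass (limma adjusted p = 0.195).

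Among the receptors, the 2 VEGF receptors gave unlike readings. Flt1, the high-affinity VEGF receptor that limits signalling through Kdr, had 9.49, 9.59, 9.14, 9.66 and 9.61 on the P2 arrays and 4.63, 4.63, 4.60, 4.47 and 4.55 on the E16 embryo arrays. It was at least 13.4-fold higher in P2 neurons than in E16 embryo (log2 change 4.92 ± 0.21, limma adjusted p = 8.07e-16) and at least 13.8-fold higher than in E13 embryo (4.90 ± 0.20, limma adjusted p = 2.86e-16). A second Flt1 probe, never above background, changed by 0.06. Kdr, the main signalling receptor for VEGF, had 5.52, 5.17, 4.86, 4.97 and 5.30 on the P2 arrays and 5.09, 4.91, 5.14, 4.94 and 5.26 on the E16 embryo arrays. These values overlapped, none of the 2 Kdr probes was above background on any of the 27 arrays, and no fold is given. The Kdr change was 0.10 with 95% limits of −0.19 to 0.38 (limma adjusted p = 0.612). A probe that reads no signal on any array cannot show whether the transcript differed.

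Tek, the angiopoietin receptor Tie2, had 8.23, 8.41, 7.96, 8.22 and 7.96 on the P2 arrays and 4.45, 4.56, 5.41, 4.62 and 4.79 on the E16 embryo arrays. The highest E16 value of Tek was still well under the lowest P2 value, and none of the embryonic arrays had Tek above background. It was at least 5.26-fold higher in P2 neurons than in E16 embryo (log2 change 3.39 ± 0.18, limma adjusted p = 6.56e-14) and at least 5.43-fold higher than in E13 embryo. Igfbp7, a secreted binding protein of vessel walls, had 11.48, 11.29, 11.15, 11.29 and 11.15 on the P2 arrays and 4.71, 5.43, 4.66, 5.73 and 4.65 on the E16 embryo arrays. Igfbp7 was at least 45.6-fold higher in P2 neurons than in E16 embryo (log2 change 6.23 ± 0.52, limma adjusted p = 2.71e-10) and at least 47.0-fold higher than in E13 embryo. Only 1 of its 5 probes was ever above background, and the other 4 changed by −0.18 to 0.05 against E16 embryo.

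The 2 pericyte genes differed in their readout. Rgs5, a regulator of G-protein signalling used as a pericyte marker, had 7.57, 7.32, 8.73, 8.05 and 7.07 on the P2 arrays, against 4.62, 4.67, 4.48, 4.66 and 4.53 on the E16 embryo arrays. The P2 values were spread more widely than those of the endothelial genes, yet all lay above the E16 values. Rgs5 was at least 3.96-fold higher in P2 neurons than in E16 embryo (log2 change 3.15 ± 0.19, limma adjusted p = 5.98e-13) and at least 4.09-fold higher than in E13 embryo (3.16 ± 0.18, limma adjusted p = 1.8e-13). Without array 3 of P2 neurons the Rgs5 change against E16 embryo was 2.91. Pdgfrb, the receptor that carries the endothelial Pdgfb signal to pericytes, had 5.10, 4.92, 5.84, 5.13 and 4.83 on the P2 arrays and 4.50, 4.80, 4.85, 4.77 and 4.62 on the E16 embryo arrays. The groups overlapped, and only array 3 of P2 neurons had Pdgfrb above background. The Pdgfrb change was 0.46 ± 0.16 and passed the threshold (limma adjusted p = 0.026). It no longer passed without array 3 of P2 neurons (0.29, limma adjusted p = 0.114), without array 1 or array 5 of E16 embryo (limma adjusted p = 0.0689 and 0.0508), or when only these groups were fitted (limma adjusted p = 0.0575). Against E13 embryo the Pdgfrb change was 0.22 ± 0.16 (limma adjusted p = 0.272).

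**Figure D2:**
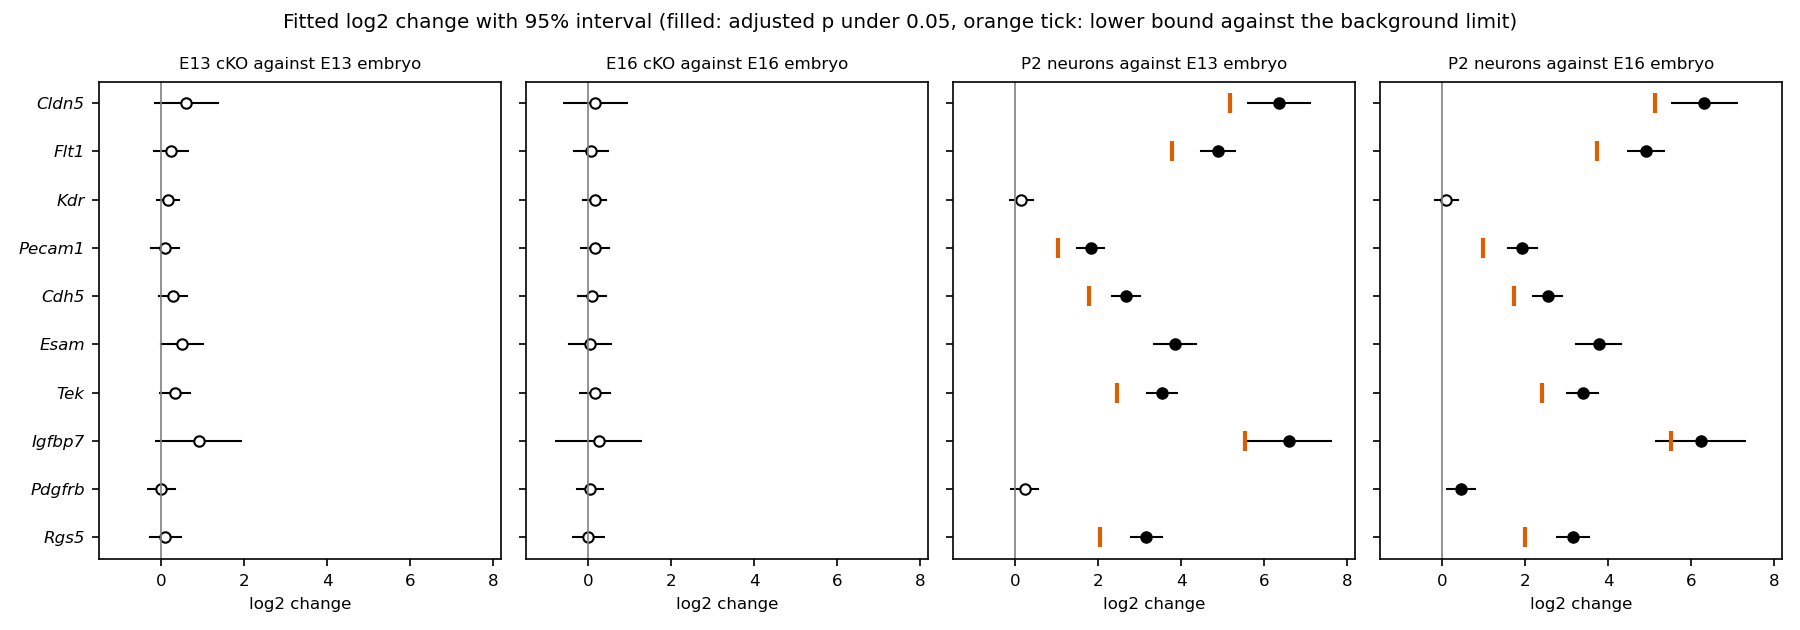
Fitted log2 change (x axis) of each vascular gene (y axis) in 4 comparisons, as points with 95% limits, filled where the limma adjusted p is under 0.05; orange ticks give the lower bound of the fold, on the log2 scale, where the second group had no array above background. In P2 neurons 8 genes stand well to the right of 0 in both comparisons, from Pecam1 (1.93 against E16 embryo) to Cldn5 (6.33), while all intervals of both cKO comparisons include 0.

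Genes of 4 other vascular lists were measured in the same comparisons. Against E16 embryo 48.9% of all genes were called in either direction and 21.2% were called higher. Against E13 embryo these shares were 50.2% and 22.4%. Of 36 measured endothelial genes outside the 10, limma called 30 higher and 1 lower in P2 neurons than in E16 embryo, with a median log2 change of 1.99. Those named by the size of the fitted change were Cav1, the coat protein of caveolae, at least 29.8-fold higher, Sparc, a secreted matrix protein, at least 30.9-fold higher, Klf2, a flow-responsive transcription factor, at least 10.7-fold higher, and Robo4, an endothelial guidance receptor, at least 10.6-fold higher. The 1 lower gene was Clec14a, which changed by −0.48 (limma adjusted p = 0.0274) with no array of either group above background. Against E13 embryo 31 of the 36 were higher and 2 lower, among them Ramp2, an adrenomedullin receptor partner, 28.6-fold higher.

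Of 20 measured blood-brain barrier genes, 11 were higher and 0 lower in P2 neurons than in E16 embryo (limma), and 9 did not pass. The share that passed was near the 48.9% of all genes called in either direction, while 21.2% of all genes were called higher. The amino acid transporter Slc38a5 was at least 28.8-fold higher and the thyroid hormone transporter Slco1c1 at least 19.1-fold higher. The transcription factor Foxq1 was 8.71-fold higher and the transferrin receptor Tfrc 2.36-fold higher, both above background on all arrays of both groups. The glucose transporter Slc2a1, named after its values were seen, averaged 9.41 ± 0.30 in P2 neurons and 9.36 ± 0.21 in E16 embryo (SD, n = 5 each), a log2 change of 0.05 (limma adjusted p = 0.82). Against E13 embryo 10 barrier genes were higher and 1 lower, again near the share of all genes called in either direction, 50.2%. Mfsd2a, a lipid transporter of barrier endothelium, was 2.16-fold higher in P2 neurons than in E13 embryo.

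Of 19 measured pericyte and smooth muscle genes outside the 10, 13 were higher and 1 lower in P2 neurons than in E16 embryo (limma), and 14 and 1 against E13 embryo. Rgs4, a relative of Rgs5 that neurons also make, was 20.5-fold higher, Vtn, the secreted vitronectin, at least 5.61-fold higher, Mylk, the myosin light chain kinase, at least 3.97-fold higher, and Gja4, a connexin of vessel walls, at least 2.81-fold higher. The lower one was Cnn1, a smooth muscle calponin, which changed by −0.53 (limma adjusted p = 0.00647) with no array of either group above background. Of 34 vascular signalling genes 14 were higher and 4 lower than in E16 embryo (limma), and 14 and 5 against E13 embryo, so that 18 and 19 of the 34 passed, a share near that of all genes. Pdgfb, the ligand of Pdgfrb, was at least 5.45-fold higher. Aplnr, the apelin receptor, was at least 4.58-fold higher, Pdgfra, a PDGF receptor of oligodendrocyte precursors and fibroblasts, at least 8.60-fold higher. Angpt1, a ligand of Tek, changed by 2.50 on the log2 scale (limma adjusted p = 1.72e-09), but only 1 of 5 E16 embryo arrays was above background, so no fold is given. Foxf2, Pdgfra, Cspg4 and Vim each stand in 2 of the lists used.

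Markers of several other cell types also differed between P2 neurons and the embryo groups. Beside their counts stand the shares of all genes against E16 embryo, 21.2% called higher and 48.9% called in either direction. All 12 measured microglia markers were higher in P2 neurons than in E16 embryo (limma) and above background on all 5 P2 arrays, with summed signals of 5353 to 8557 in P2 neurons, 344 to 390 in E16 embryo and 325 to 373 in E13 embryo. Of 15 meninges and fibroblast markers 11 were higher and 1 lower, with summed signals of 2078 to 4578 in P2 neurons, 1387 to 1692 in E16 embryo and 2546 to 4442 in E13 embryo. Of 6 choroid plexus markers 3 were higher and 0 lower, near the share of all genes called in either direction. Only 1 of the 6 was above background on every P2 array. Their sums were 1889 to 19025 in P2 neurons and 216 to 255 in E16 embryo. Of 6 oligodendrocyte lineage markers 4 were higher, with sums of 1328 to 13210 in P2 neurons and 392 to 520 in E16 embryo. Of 8 erythroid and blood markers 0 were higher and 1 lower (limma; 2 had an unadjusted p under 0.05), with sums of 1815 to 8093 in P2 neurons, 848 to 2452 in E16 embryo and 234 to 1082 in E13 embryo. Hba-a1, an adult globin and the brightest of this list, was above background on all P2 arrays, and the embryonic globins Hbb-y, Hba-x and Hbb-bh1 on none. Of 11 radial glia and progenitor markers 4 were higher and 3 lower than in E16 embryo (limma; median −0.40), and 3 and 5 against E13 embryo. Neuron markers were also higher, 7 of 11, with 2 lower, and sums of 74311 to 80996 in P2 neurons and 48953 to 57350 in E16 embryo. The part of these other cells in the vascular difference was not tested. The sort of the P2 samples is labelled as one for GFP-positive neurons.

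**Figure D3:**
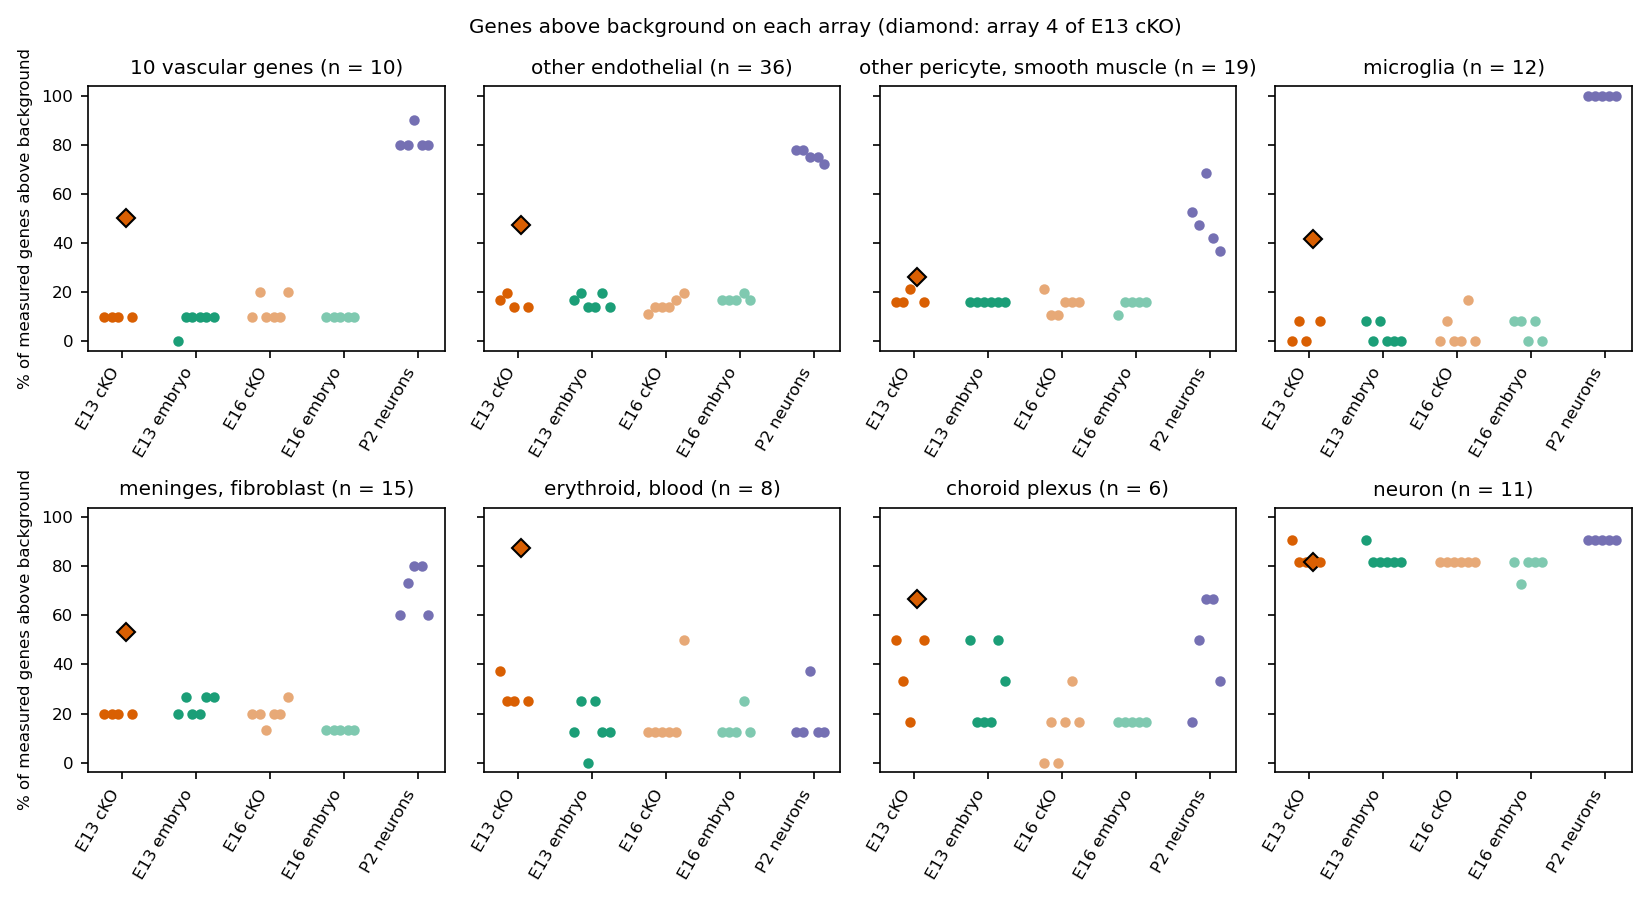
Share of measured genes above background (y axis, percent) on every array of the 5 groups (x axis) for the 10 vascular genes and 7 other lists, 1 point per array, with array 4 of E13 cKO drawn as a diamond. P2 neurons have 8 or 9 of the 10 vascular genes and all 12 microglia markers above background, and the diamond lies above the other E13 cKO arrays for the vascular, microglia, meninges, erythroid and choroid plexus lists.

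The 5 P2 arrays differed among themselves. Cldn5, Flt1, Pecam1, Cdh5, Esam and Igfbp7 were each lowest on array 3, whereas Rgs5 was highest there and Pdgfrb was above background there only. The range over the 5 arrays was 1.65 for Rgs5 on the log2 scale, and 0.33 for Igfbp7, 0.52 for Flt1, 0.59 for Cldn5 and 1.00 for Pecam1. Of the 19 pericyte and smooth muscle genes outside the 10, 14 were above background on some P2 array, and 7 of these were highest on array 3 and 1 was lowest there. Only 6 of the 19 were above background on all 5 P2 arrays, of which 3 were highest and 0 lowest on array 3. Of the 36 other endothelial genes 30 were above background on some P2 array, of which 2 were highest and 8 lowest on array 3. The sums that follow are those of the 19 pericyte and smooth muscle genes. The summed signal of these 19 genes was 4642 on array 3 and 3043 to 4465 on the other P2 arrays. It includes Rgs4, which neurons also make and which averaged 11.15 on the log2 scale in P2 neurons. The examples named here were picked after their values were seen. Vtn had its highest value on array 3, against 7.11, 8.16, 8.59 and 7.38 on the other 4 P2 arrays. Kcnj8 and Abcc9, the subunits of a pericyte potassium channel, had 6.14 and 5.98 on array 3, and Higd1b, a mitochondrial protein used as a pericyte marker, had 5.75, each being above background on 2 of the 5 arrays. On array 3 itself 13 of the 19 were above background, against 7 to 10 on the other P2 arrays. Array 3 also had the highest sums of its group for the meninges list (4578), the choroid plexus list (19025), the erythroid list (8093), the oligodendrocyte list (13210) and the radial glia list (19567). The part of those cells in the pericyte values was not tested, and n = 5 arrays allows no test of such a pattern chosen on these values. Without array 3, the same 8 genes other than Kdr and Pdgfrb passed against E16 embryo, with changes between 2.06 for Pecam1 and 6.38 for Cldn5.

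**Figure D4:**
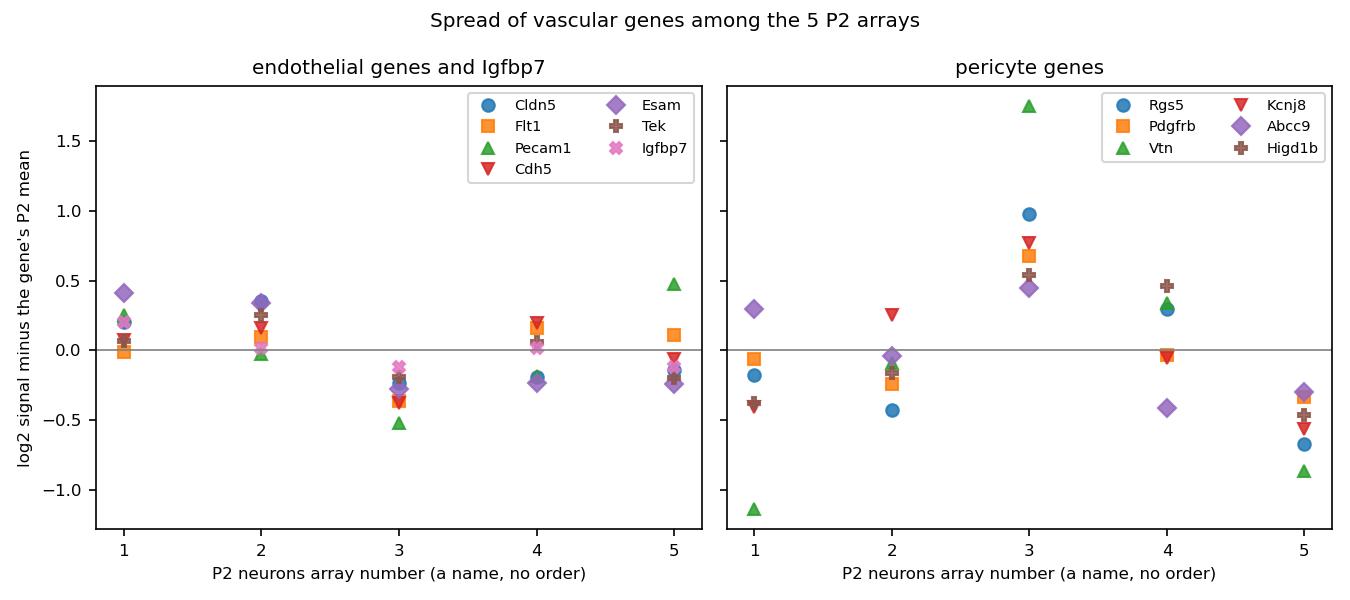
Log2 signal minus the gene's mean over the 5 P2 arrays (y axis) by array number (x axis, a name with no order), for 7 genes (Cldn5, Flt1, Pecam1, Cdh5, Esam, Tek and Igfbp7) on the left and 6 pericyte genes on the right, 1 marker per gene. Of the genes on the right, Vtn, Kcnj8, Abcc9 and Higd1b were picked from 19 after their values were seen. On array 3 all 7 genes on the left lie below their means and those on the right above, with Rgs5 at 8.73 on that array; Pdgfrb, Kcnj8, Abcc9 and Higd1b were above background on 1 or 2 arrays only.

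Between the arrays labelled cKO and the embryo arrays no vascular gene passed. At E13 limma called 0 of 10, with 0 at an unadjusted p under 0.05 and a lowest adjusted p of 0.914, where 0.42% of all genes were called. At E16 it called 0 of 10, with 0 at an unadjusted p under 0.05 and a lowest adjusted p of 1, where 0.0787% of all genes were called. Of the 10 genes, 9 were above background on at most 3 of the 22 embryonic arrays, so for these only a large rise could be seen. Esam, the exception, averaged 6.59 ± 0.76 in E13 cKO and 6.10 ± 0.26 in E13 embryo (SD, n = 5 and 6), a change of 0.50 with 95% limits of −0.02 to 1.01 (limma adjusted p = 0.914). At E16 Esam averaged 6.21 ± 0.37 in cKO and 6.17 ± 0.26 in embryo (SD, n = 6 and 5), a change of 0.03 with limits of −0.48 to 0.55.

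Array 4 set the E13 cKO values. On that array Cldn5 was 7.67 against 4.40 to 4.64 on the other 4 arrays of the group, and Igfbp7 was 8.75 against 4.53 to 5.23. Flt1 was 6.19 against 4.43 to 4.59, Esam 7.86 against 5.97 to 6.73, and Cdh5 5.91 against 4.66 to 5.36. These 5 genes were above background on array 4, and on the other 4 arrays only Esam was. The E13 change of Igfbp7 was 0.90 with array 4 and 0.11 without it, that of Cldn5 0.60 and −0.03, and that of Esam 0.50 and 0.18, none of which passed (limma). The median over the 10 genes was 0.25 with array 4 and 0.03 without it. The same array had 17 of 36 other endothelial genes above background against 5 to 7 on the other 4, and 5 of 12 microglia markers against 0 or 1. Its erythroid markers summed to 31791 against 487 to 816, with 7 of 8 above background and embryonic globin Hbb-y at 13.64. Its choroid plexus markers summed to 6761 against 421 to 653, with Ttr, the transthyretin of choroid plexus, at 12.51. The part of blood, meninges or choroid plexus in the vascular values of array 4 was not tested.

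Among the E16 cKO arrays Igfbp7 was above background on 2 of 6, at 6.10 on array 2 and 6.07 on array 6, while it was above background on 0 of 5 E16 embryo arrays, where it reached 5.73. The E16 change of Igfbp7 was 0.25 with 95% limits of −0.78 to 1.28 (limma adjusted p = 1). Array 6 also had the highest erythroid sum of its group, 8981 against 998 to 2631, and array 2 had 1130. The 4 other vascular lists together gave 1 call between cKO and embryo at E13 and 0 at E16 (limma). At E13 the 1 gene of the 4 other vascular lists to pass was Cxcl12, which averaged 6.80 in E13 cKO and 8.78 in E13 embryo (log2 change −1.98 ± 0.42, limma adjusted p = 0.0389). Without array 4 of E13 cKO the Cxcl12 change was −1.89 and did not pass (limma adjusted p = 0.157). At E16 Cxcl12 averaged 7.50 in cKO and 8.87 in embryo and did not pass (−1.37 ± 0.42, limma adjusted p = 0.414). Without array 2 of E13 cKO and array 3 of E16 cKO more genes passed: 3 of 34 signalling, 1 of 36 endothelial and 1 of 19 pericyte genes at E13, and 2, 1 and 1 at E16. Among them Rgs4 changed by 2.95 at E13 and 1.90 at E16, against 2.37 and 1.44 with all arrays. Nrp1 changed by 0.76 at E13, against 0.59 with all arrays, and Cxcl12 by −2.55 at E13 and −1.71 at E16. Those arrays were picked because their expression resembled the embryo arrays, so these added calls are not independent of the choice.

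Between embryonic stages none of the 10 genes passed. Limma called 0 of 10 between E16 and E13 embryo, with 0 at an unadjusted p under 0.05 and a lowest adjusted p of 0.523, where 11.2% of all genes were called, and 0 of 10 between E16 and E13 cKO, again with 0 at an unadjusted p under 0.05 and a lowest adjusted p of 0.479, where 12.3% of all genes were called. Esam averaged 6.17 ± 0.26 in E16 embryo and 6.10 ± 0.26 in E13 embryo (SD, n = 5 and 6), a change of 0.08 with 95% limits of −0.43 to 0.59. No difference in the stage effect between cKO and embryo passed for any of the 10 genes by limma's interaction term (0 called, 0 at an unadjusted p under 0.05, 0% of all genes called).

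Of the other vascular lists, limma called 6 of 34 signalling, 2 of 36 endothelial, 3 of 20 barrier and 0 of 19 pericyte genes between E16 and E13 embryo, which together is near the 11.2% of all genes. Between E16 and E13 cKO it called 5, 2, 1 and 2 of them, against 12.3% of all genes. Plvap, the diaphragm protein of immature and fenestrated endothelium, was 4.63, 4.75, 4.97, 4.78 and 5.01 in E16 embryo and 5.27 to 6.51 in E13 embryo, with 0 of 5 and 4 of 6 arrays above background. It fell by 1.03 on the log2 scale (limma adjusted p = 3e-04), a bound of at least 1.07-fold lower at E16. In the cKO arrays Plvap was above background on 0 of 6 at E16 and 5 of 5 at E13 and fell by 1.57 (limma adjusted p = 1.03e-06), at least 1.57-fold lower, and by 1.44 without array 4 of E13 cKO. In P2 neurons Plvap was 7.38 to 7.80, at least 3.61-fold higher than in E16 embryo. Nrp1, a co-receptor of VEGF that neurons also carry, was higher in E16 than E13 embryo by 1.71 ± 0.15 (limma adjusted p = 2.52e-08) and Vegfa, the main ligand of Flt1 and Kdr, by 0.73 ± 0.15 (limma adjusted p = 0.00193). Wnt7a, a Wnt ligand of neural progenitors that drives brain vessel growth, was lower at E16 by −1.56 ± 0.26 (limma adjusted p = 0.000165). In cKO arrays Nrp1 rose by 1.08 and Wnt7a changed by −1.64, both past the threshold (limma adjusted p = 1.97e-05 and 7.55e-05), whereas Vegfa changed by 0.44 (limma adjusted p = 0.0715) and did not pass. Pdgfb was lower at E16 in embryo (−0.77, limma adjusted p = 0.00216) and in cKO arrays (−0.91, limma adjusted p = 0.000319), with no E16 array above background. The junction gene Jam2 was lower at E16 in embryo (−1.28, limma adjusted p = 0.000578) and in cKO arrays (−0.96, limma adjusted p = 0.00808). Vcam1, an adhesion molecule of endothelium and progenitors, was at least 2.34-fold higher in E16 than in E13 embryo (limma adjusted p = 0.0172). In cKO arrays Vcam1 changed by 1.31 and did not pass (limma adjusted p = 0.1), and without array 4 of E13 cKO it changed by 1.69 and passed (limma adjusted p = 0.0264).

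Esam was the only member above background on at least 11 of the 22 embryonic arrays, which the likeness rule required. Over those arrays, with each value centred on its group mean, the 3 genes of 9382 that followed Esam most closely were Ecm1 (Pearson r = 0.79), Ntrk3 (r = 0.79) and Anxa6 (r = 0.74). Without array 4 of E13 cKO, over 21 arrays, the r were 0.61 for Ecm1, 0.74 for Ntrk3 and 0.37 for Anxa6. The arrays share group, table and normalisation, and the values are descriptions.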

How the data were processed

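Biotin-labelled cRNA of 27 samples was hybridised to Illumina mouse bead arrays. The authors deposited 3 tables of summarised, non-normalised bead intensity with a detection p-value per probe, per the file headers, and a series matrix of log2 values for 12377 probes whose normalisation no label or header names. The deposited matrix held 1 of the 19 vascular probes (Esam) and was used as an alternative only. Columns name a group and no replicate number of the labels.

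In limma 3.58.1 (R 4.3.3) intensities were background-corrected (normexp from detection p-values, offset 16), quantile-normalised, log2-transformed and fitted with 1 mean per group over all 27 arrays, adjusting p-values over 45281 probes (Benjamini-Hochberg). The fit was tested on simulated data. "Above background" is a detection p under 0.01. A bound takes, per array, the higher of the lowest signal above background and the probe's own. Symbols came from the platform annotation (34885 probes with 1 symbol, 18 with several, 10378 with none). Outside the 10 genes, up to 4 passing genes per vascular list and comparison were named by largest change, and the 3 brightest markers per other list. Values named outside this rule were chosen after they were seen, among them single markers of other cells, Slc2a1 and the array-wise values of Plvap and Cxcl12. The genes and lists were chosen with earlier results of these data known. Sequence matches were exact.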

Additional observations from a re-analysis of the deposited data

Results flagged for a closer look

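In 50 combinations of 10 vascular genes and 5 groups, 6 had 1 array far from the rest by Dixon's test at the 95% level, for which chance alone marks about 1 in 20. All 6 were array 4 of E13 cKO. The gap to the nearest array as a share of the group's whole range was 0.928 for Cldn5, 0.91 for Flt1, 0.835 for Igfbp7, 0.827 for Tek, 0.787 for Pecam1 and 0.737 for Rgs5, against a critical value of 0.71 for 5 arrays. Cldn5, Flt1 and Igfbp7 were above background on that array. Tek (5.68), Pecam1 (5.66) and Rgs5 (5.13) were not, so their gaps lie within signals that are only bounds. These 6 flags come from 1 sample and are not independent of each other.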

How the results depend on the processing

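Background correction, offset, scaling, moderation, probe averaging, 2 filters on dim probes and the samples in the fit left every count of vascular genes called within 1.5 times its value. The series matrix measured 1 of the 10 genes and called it, Esam, in both P2 comparisons, which gave counts of 1 against E16 embryo and 1 against E13 embryo, also with the replicate number of the labels as a block (replicate block: 1 and 1). Esam did not pass in the other comparisons with the replicate block, which gave 0.61 for E13 cKO against E13 embryo and 0.06 for E16 cKO against E16 embryo. The numbers were not taken to pair the samples, since in no comparison did all pairs correlate over 0.1; the nearest was E16 cKO against E16 embryo, with 4 of 5 pairs over 0.1 (0.0623 to 0.509) and 3 of 5 samples closest to their own number. Leaving out 1 array gave 8 to 9 genes against E16 embryo, 8 to 8 against E13 embryo and 0 to 0 in the other comparisons. Of 1506 refits of single vascular genes, 1502 stayed called or stayed not called, and 4, all of Pdgfrb against E16 embryo, lost the call. No called change reversed its direction. Changes that were not called could change sign, as that of Cldn5 between E13 cKO and E13 embryo did without array 4 of E13 cKO (0.60 to −0.03). Without array 2 of E13 cKO and array 3 of E16 cKO, 0 of the 10 genes passed between cKO and embryo at either stage, while Rgs4, Nrp1 and Cxcl12 gained calls given above. Filters on dim probes kept 8 of the 10 genes, 7 of them only through the P2 arrays where they are high, so their calls there are no sign of stability. The filter of 5 arrays lowered the barrier gene count against E16 embryo to 7 of 9 measured and the pericyte count to 7 of 8. Leaving out 1 array moved the erythroid count against E16 embryo between 0 and 2 of 8. In alternatives chosen after seeing the data, 3 genes lost their call between E16 and E13 cKO without array 4 of E13 cKO: Egfl7 (−0.66 with it, −0.39 without), Rgs4 (−1.77 and −1.72) and Cd248 (−0.92 and −0.75), and Vcam1 gained one. Chip could not be fitted because no header names one. Signals near background limit all embryonic comparisons. Esam too averaged only 6.10 to 6.59 in the embryonic groups, where the dimmest signals above background averaged 5.71 to 5.81.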
